A study of Homo sapiens with 4 samples.

Results

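The myosin heavy chain genes described here are 9 of the 63677 genes counted in RNA-seq of HCT116 cells, a human colorectal cancer line. They were chosen by symbol, with earlier results of these data known. MYH3 was taken because its RNA was also followed by RT-qPCR, and 8 non-muscle or unconventional heavy chains were set beside it: MYH9, MYH10, MYH14, MYO1E, MYO5A, MYO6, MYO10 and MYO18A. The cells, of 1 line, were transfected for 48 h, per the labels, with an antisense oligonucleotide (ASO) against GAA repeats (anti-GAA ASO, 2 libraries) or with a control ASO (2 libraries). The methods give another transfection time and another library kit than the labels, so both remain uncertain. The anti-GAA ASO is complementary to 7 tandem copies of GAA, 21 nt in all, and was designed to direct RNase H, which cuts RNA paired with DNA, to transcripts that hold such repeats. The comparison asks which of these genes have a different RNA level with the anti-GAA ASO than with the control ASO, as a whole and within each pair of libraries that share a replicate number. The methods call the libraries duplicate experiments and do not say whether they came from separate cultures, so the p-values measure the spread between these libraries, which may be technical.

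Most myosin heavy chains are motor subunits that hydrolyse ATP to move along or pull on actin filaments. They bind light chains or calmodulin at the neck. The muscle chains, such as MYH3 of embryonic skeletal muscle, assemble into the thick filaments of the sarcomere. The non-muscle class II chains MYH9, MYH10 and MYH14 form the contractile bundles of the cell cortex, stress fibres and the cytokinetic ring. The unconventional chains MYO1E, MYO5A, MYO6, MYO10 and MYO18A link membranes, vesicles, filopodia or the Golgi to actin.

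Total counts ranged from 10538284 to 17894953, and anti-GAA ASO replicate 1 had the lowest. The epithelial markers EPCAM, KRT8, KRT18 and KRT19 averaged 685, 324, 327 and 1361 CPM (counts relative to library size, scaled by TMM). Of the other epithelial markers listed, CDH1, CDX2 and KRT20 averaged 48.0, 20.4 and 1.43 CPM, and VIL1 was near 0. Of 15116 genes tested by edgeR's quasi-likelihood test, 0 (0%) passed an adjusted p of 0.05, although at an unadjusted p under 0.05 there were 523 lower and 154 higher genes. DESeq2 called 5 genes. A fit in edgeR with a block for the replicate number called 258, of which 207 were lower.

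Of the tested members, MYO1E and MYH3 had the lowest levels in anti-GAA ASO libraries relative to control, at 51.4% (MYH3) and 52.3% (MYO1E) of the control level. Neither passed the adjusted threshold when the condition was the only term. MYO1E passed it when the replicate number entered as a block. The other tested members were closer to their control levels, and MYH9, the most abundant of them, did not pass in any fit. The filter on low counts kept 7 of the 9 members, and left out MYH14 and MYO18A. Of the 7, 6 were below 0 on the log2 scale, as were 48.4% of all tested genes, and 6 were lower in both pairs, as were 4540 (30%) of all tested genes.

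MYH3 (17:10628526-10657309, minus strand, GRCh38) encodes the embryonic skeletal muscle heavy chain, which in adults is rare outside regenerating muscle. It was counted 42 and 50 times in the anti-GAA ASO libraries (replicates 1 and 2) and 84 and 137 times in the control ASO libraries. These counts correspond to 4.24 and 2.81 CPM in the anti-GAA libraries against 5.48 and 8.08 CPM in the controls. Both anti-GAA ASO libraries lay below both control ASO libraries, an arrangement found for 16.9% of all tested genes (the opposite one for 15.5%). The log2 fold change was −0.96 (SE 0.38, 95% interval −1.86 to −0.06, edgeR adjusted p = 0.996). MYH3 had an unadjusted p of 0.0389, and 3.46% of all tested genes were lower at an unadjusted p under 0.05. The pairs differed in size, with −0.36 on the log2 scale in replicate 1 and −1.48 in replicate 2. Leaving out control ASO replicate 2, the library with the highest MYH3 level, changed the log2 fold change to −0.64, and leaving out anti-GAA ASO replicate 1 or control ASO replicate 1 changed it to −1.26 or −1.22. In bulk RNA, fewer cells with a transcript and less of it per cell cannot be told apart.

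MYH3 was the lowest of the tested members in every library. Per kilobase of its longest transcript it stood at 0.703 and 0.466 CPM with the anti-GAA ASO and at 0.908 and 1.34 CPM with the control ASO, whereas MYH9 stood between 27.0 and 35.6 CPM per kilobase. Markers of skeletal muscle were nearly absent. The myogenic factor MYOD1 had 0 counts in all 4 libraries, and MYOG, CKM, TNNT3 and MYL1 averaged below 1 CPM. The summed level of the 8 muscle markers was 3.54 and 5.28 CPM in the anti-GAA libraries against 5.09 and 8.37 CPM in the controls, most of it from desmin (DES), ACTA1 and titin (TTN). This sum, like MYH3, was highest in control ASO replicate 2. Unlike MYH3, it was lowest in anti-GAA ASO replicate 1, and its groups overlapped. Its part in the MYH3 result was not tested. Of the distinct 50-nt stretches of the MYH3 transcript, 3.93% occurred exactly in other genes, the largest share among the members. With matches counted in every annotated transcript of the other genes, MYH2 had the most, and it reached at most 0.393 CPM. The expressed gene nearest upstream of MYH3 on its strand was SCO1, a copper chaperone of cytochrome c oxidase, 15165 nt away, with 112 and 116 CPM in the anti-GAA libraries against 128 and 141 CPM in the controls. The log2 fold change of SCO1 was −0.24 (SE 0.19, edgeR adjusted p = 0.996).

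The GAA repeats of MYH3 are short. They are shown because the ASO was designed against such repeats, with the uninterrupted GAA repeat in capitals and flanks in lower case, on the RNA strand of GRCh38. The exonic repeat, 10 nt, lies in exon 34 of 41 (17:10632577-10632586) within the coding sequence, where it is read as AAG (lysine) codons. The longest repeat of the gene body, 13 nt, lies in an intron (17:10647884-10647896), 457 nt from the nearest exon.
MYH3, exon 34: catccggctcAAGAAGAAGAtggaggggga
MYH3, intron: ccaaactgGAAGAAGAAGAAGggagaagag
An exonic repeat of at least 10 nt was present in the longest transcript of 9.6% of the 14751 tested genes that could be searched. The best 21-nt match in the MYH3 transcript to the 7-copy target had 16 identical bases, and 17.4% of those transcripts held a window with at least as many.

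The RT-qPCR primers of the study amplify 75 nt of exon 30 of MYH3 (17:10635434-10635508), 740 nt upstream of the exonic repeat in the transcript. They are shown 5′ to 3′ because they decide which RNA a MYH3 assay reads.
MYH3 forward: TGCGGGAACAGTATGAGGA
MYH3 reverse: CCTCACTATTGGCCTTGGAC
The forward primer occurred without mismatch in transcripts of 6 genes (MYH1, MYH2, MYH3, MYH4, MYH8 and MYH13), the reverse primer in MYH3 alone, and both together in MYH3 alone. The RNA-seq counts are per gene, whereas the primers read 1 exon.

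Among the 13805 tested genes that averaged 1 CPM or more, those whose levels followed MYH3 most closely over the 4 libraries were PRSS22, a serine protease gene (distance 0.127, the Euclidean distance of mean-centred log2 CPM), EME2, a subunit of a DNA structure-specific endonuclease (0.140), and ENSG00000271781, which has no symbol in the annotation (0.147). PRSS22 had 1.31 and 0.731 CPM in the anti-GAA libraries against 1.56 and 2.36 CPM in the controls. EME2 had 2.93 and 2.08 CPM in the anti-GAA libraries against 3.78 and 5.25 CPM in the controls. As with MYH3, anti-GAA ASO replicate 2 was the lowest and control ASO replicate 2 the highest library for both. This shared order follows from choosing the genes by their likeness to MYH3 over the same libraries.

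**Figure D1:**
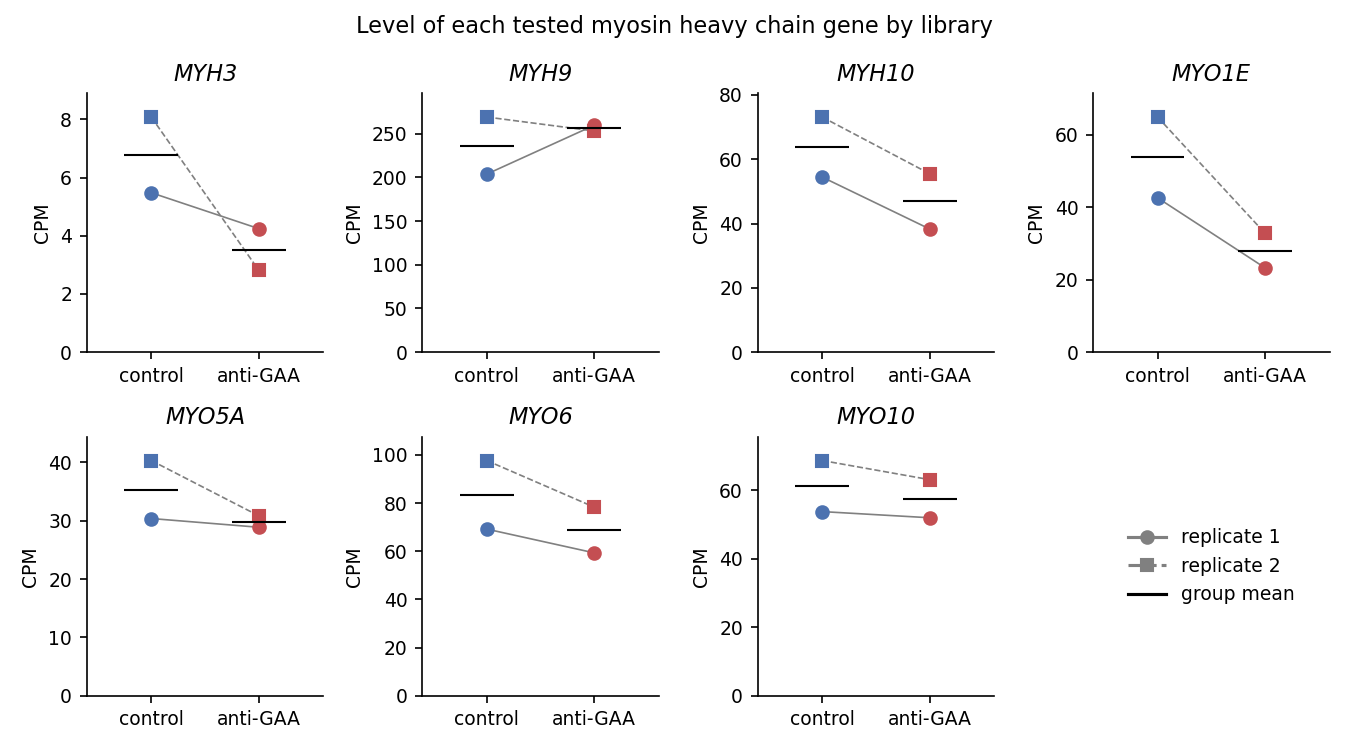
Level in CPM (y axes, from 0) of the 7 tested members in the control ASO and anti-GAA ASO libraries. Circles and solid lines are replicate 1, squares and dashed lines replicate 2, and bars are group means. For MYH3 and MYO1E both anti-GAA ASO libraries lie below both control ASO libraries, and for the other 5 the groups overlap.

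MYO1E (15:59132434-59372871, minus strand) encodes a long-tailed class I myosin that works in endocytosis and in kidney podocytes. It was counted 230 and 583 times in anti-GAA ASO replicates 1 and 2, and 653 and 1100 times in the control ASO libraries. Its level was 23.2 and 32.8 CPM in the anti-GAA libraries against 42.6 and 64.9 CPM in the controls. It was lower in both anti-GAA ASO libraries than in both controls, as were 16.9% of all tested genes. The group means were 28.0 ± 6.74 CPM and 53.7 ± 15.8 CPM (SD, n = 2 each). The difference was similar in both pairs, −0.87 in replicate 1 and −0.98 in replicate 2 on the log2 scale. With the condition as the only term the log2 fold change was −0.94 (SE 0.29, 95% interval −1.62 to −0.25, edgeR adjusted p = 0.964), with an unadjusted p of 0.0147. With the replicate block it was −0.93 (SE 0.15, edgeR adjusted p = 0.00833), and MYO1E ranked at place 40 of the 15116 genes by p in that fit, in which 1.37% of all tested genes were called lower. MYO1E was the only member of the 7 called there, and DESeq2 with the block gave an adjusted p of 0.0162. Leaving out 1 library at a time, without the block, gave log2 fold changes from −1.22 to −0.59.

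In the spliced MYO1E transcript the longest GAA repeat is 8 nt, in exon 2 of 28, the shortest of the 9 members and one that 43.3% of tested transcripts equal or exceed. The gene body holds a longer one, 17 nt, in an intron near the 5′ end (15:59369964-59369980), 1.2% of the gene length from its start and 2517 nt from the nearest exon. It is shown with the exonic repeat because they differ most in length of all pairs within a member. The third line is the 21-nt window around the intronic repeat that best matches the 7-copy target, with matching bases in capitals (15:59369958-59369978).
MYO1E, exon 2: gtggagaatctGAAGAAGAgatacatggat
MYO1E, intron: aatattAAGAAGAAGAAGAAGAAaaagaag
MYO1E, intron window: GAAGAAGAAGAAGAAaAAGAA
The window matches at 20 of 21 bases. A gene-body window with at least as many matches occurred in 1.78% of the 14751 tested genes searched, and in 5.59% of the 1001 genes within 1.5-fold of the length of MYO1E. In the spliced MYO1E transcript the best match was 15 of 21, reached by 38.8% of the transcripts searched. Of the tested members, MYH9 had the best transcript match, 18 of 21, reached by 2.6%. The counts are per gene, so spliced and unspliced RNA cannot be told apart in them. At its 5′ end MYO1E overlaps FAM81A, on the other strand, by 179 nt. FAM81A had 40 and 105 counts with the anti-GAA ASO and 95 and 154 with the control ASO. The strand setting of the counting is not given in the sources used here, so reads from the overlap cannot be assigned to 1 of the genes.

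Of the non-muscle class II chains, MYH9 (22:36281280-36388010, minus strand) was the most abundant and MYH14 was nearly absent. MYH9 had 260 and 253 CPM in the anti-GAA libraries against 204 and 269 CPM in the controls. The groups overlapped and the pairs went in opposite directions, with 0.35 in replicate 1 and −0.09 in replicate 2. Its log2 fold change was 0.12 (SE 0.21, 95% interval −0.38 to 0.62, edgeR adjusted p = 0.996). MYH10 (17:8474207-8631376, minus strand), which is prominent in neurons, had 38.3 and 55.5 CPM in the anti-GAA libraries against 54.5 and 73.1 CPM in the controls. It was lower in both pairs, with log2 differences of −0.51 and −0.40, while the groups overlapped, both replicate 2 libraries being the higher of their group. The log2 fold change was −0.44 (SE 0.27, 95% interval −1.07 to 0.19, edgeR adjusted p = 0.996), and the adjusted p with the replicate block was 0.133. It was −0.19 without anti-GAA ASO replicate 1 and −0.21 without control ASO replicate 2, and −0.73 without anti-GAA ASO replicate 2. MYH10 overlaps NDEL1, a dynein regulator on the other strand, over 16205 nt, and NDEL1 had 61.6 and 46.1 CPM in the anti-GAA libraries against 57.6 and 50.8 CPM in the controls. MYH14 (19:50188186-50310542, plus strand) had 8 and 3 counts with the anti-GAA ASO and 3 and 9 with the control ASO, too few for a test.

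Ratios within a library do not depend on scaling between libraries. Per length, MYH9 made up 90.2% and 86.4% of the 3 non-muscle class II chains with the anti-GAA ASO and 83.9% and 83.6% with the control ASO, and MYH10 made up 9.50%, 13.5%, 16.0% and 16.2% in the same order. The longest transcripts of MYH9 and MYH10, which gave the lengths, are annotated without a coding sequence. Without division by length, MYH10 made up 12.8%, 18.0%, 21.1% and 21.3%. The share of MYH9 per length was higher by 4.56 percentage points (88.3% ± 2.68 against 83.7% ± 0.213, SD, n = 2 each), and both anti-GAA ASO libraries exceeded both control ASO libraries. An exact two-sided permutation test gave p = 0.333, the smallest that 2 against 2 libraries allow. The difference was 2.67 percentage points without anti-GAA ASO replicate 1 and 6.45 without anti-GAA ASO replicate 2. All 6 other tested members were lower relative to MYH9 in both anti-GAA ASO libraries than in both control ASO libraries, so the pattern is not particular to any of them. The 6 ratios share MYH9 as denominator, and MYH9 was lowest in control ASO replicate 1 (204 CPM). For MYO10 the nearest libraries were −2.61 (anti-GAA ASO replicate 2) and −2.57 (control ASO replicate 2). Of all tested genes, 64.4% had a lower log2 fold change than MYH9. The share of all tested genes with this arrangement relative to MYH9 was not computed. The log2 differences were −1.08 for MYH3, −1.06 for MYO1E, −0.58 for MYH10, −0.40 for MYO6, −0.36 for MYO5A and −0.22 for MYO10, each with the same smallest permutation p. MYH9 exceeded MYH3 per length by 48.9-fold and 71.9-fold with the anti-GAA ASO and by 29.7-fold and 26.6-fold with the control ASO.

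**Figure D2:**
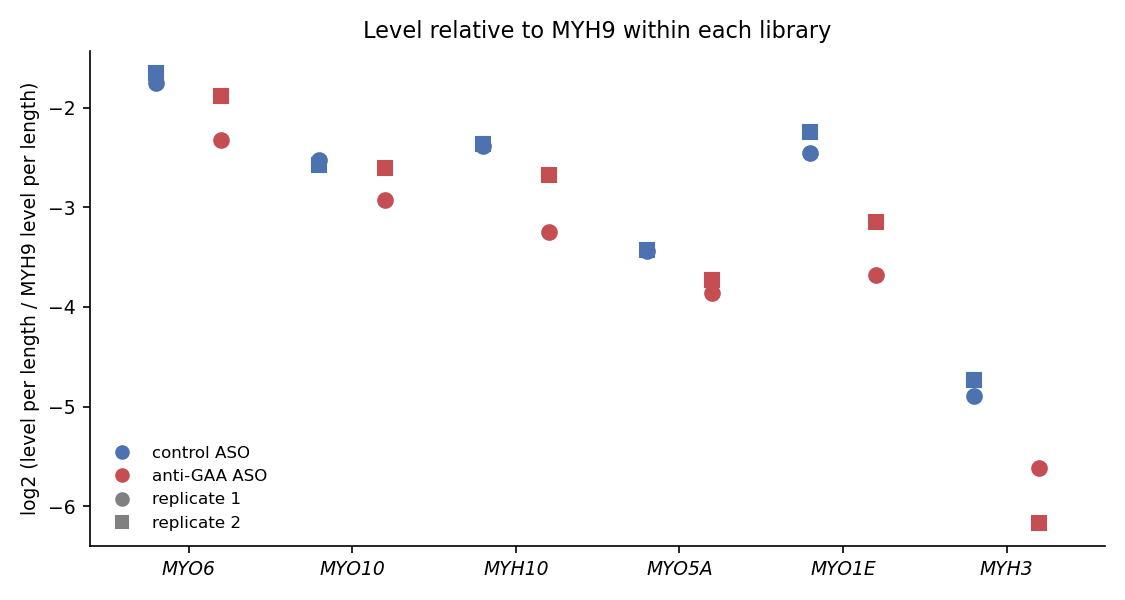
Level per length of the 6 other tested members relative to MYH9 within each library (y axis, log2 ratio). Points are single libraries, blue for the control ASO and red for the anti-GAA ASO, circles for replicate 1 and squares for replicate 2. For each gene both red points lie below both blue points, with mean differences from −0.22 (MYO10) to −1.08 (MYH3).

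The other unconventional chains were closer to their control levels. MYO6 (6:75749201-75919537, plus strand), the motor that walks toward the minus end of actin and carries endocytic vesicles, had 59.3 and 78.3 CPM in the anti-GAA libraries against 69.2 and 97.7 CPM in the controls. Its log2 fold change was −0.28 (SE 0.25, edgeR adjusted p = 0.996), with −0.22 and −0.32 in the pairs. MYO5A (15:52307281-52529132, minus strand), which carries melanosomes and other organelles, had 28.9 and 30.9 CPM in the anti-GAA libraries against 30.4 and 40.3 CPM in the controls. Its log2 fold change was −0.24 (SE 0.23), and the pairs gave −0.07 and −0.39. Without control ASO replicate 2 it was −0.016, and without control ASO replicate 1 it was −0.44. The groups of both genes overlapped. MYO10 (5:16661907-16936288, minus strand), a motor of filopodial tips, had 51.9 and 63.1 CPM in the anti-GAA libraries against 53.7 and 68.6 CPM in the controls, a log2 fold change of −0.09 (SE 0.23, 95% interval −0.63 to 0.45). Its pairs gave −0.05 and −0.12, and its sign turned when anti-GAA ASO replicate 1 (0.05) or control ASO replicate 2 (0.11) was left out. MYO18A (17:29071122-29180398, minus strand), a Golgi-associated chain, had 2 and 0 counts with the anti-GAA ASO and 5 and 2 with the control ASO. A count of 0 in anti-GAA ASO replicate 2 allows up to 0.168 CPM of reads assigned to this gene, and no fold change is given. The annotation release used for counting is not given in the sources used here. Whether reads of this locus were assigned to another gene model was not tested, so the MYO18A RNA level remains uncertain.

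**Figure D3:**
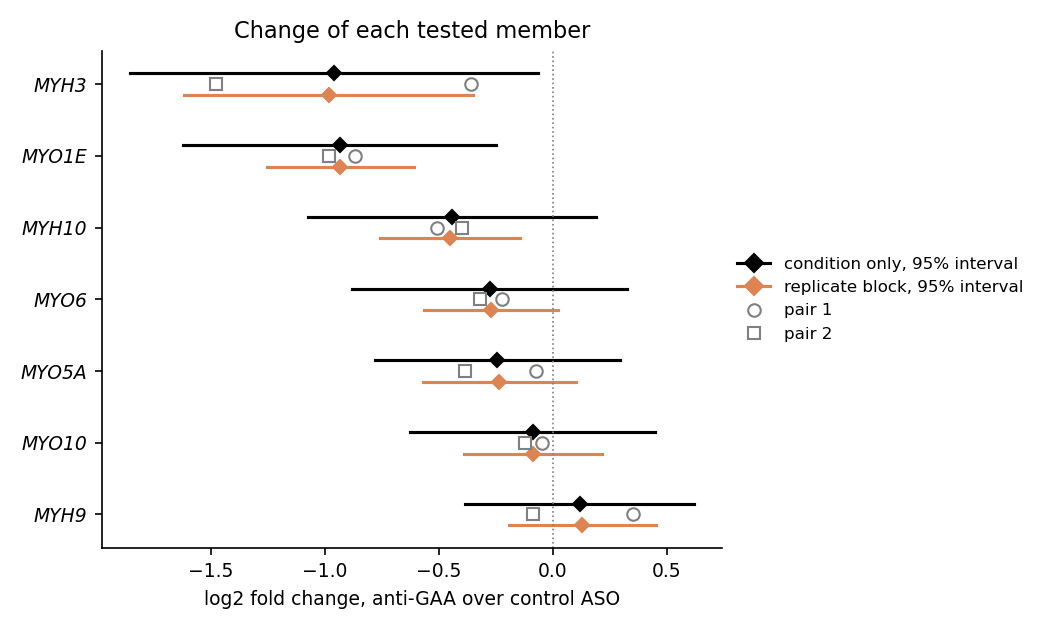
Log2 fold change of each tested member, anti-GAA over control ASO (x axis). Diamonds with bars are edgeR estimates with 95% intervals, black with the condition only and orange with the replicate block, and open circles and squares are the differences in pairs 1 and 2. The MYO1E pairs lie close together at −0.87 and −0.98, and the MYH3 pairs lie apart at −0.36 and −1.48.

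The members with the longest exonic GAA repeats were not those with the lowest levels relative to control. MYH10 holds 15 nt (17:8512502-8512516), a length that 0.637% of tested transcripts reach, read as GAA (glutamate) codons. MYO6 holds 13 nt (6:75891257-75891269), reached by 1.6%, also in coding sequence. MYH9 holds 12 nt (22:36300868-36300879), reached by 2.54%, read as AAG codons. These are the longest coding repeats among the members and are shown for comparison with those of MYH3 and MYO1E.
MYH10, coding exon: tagggttGAAGAAGAAGAAGAAagaaacca
MYO6, coding exon: gagaaaacAAGAAGAAGAAGAgagaaagaa
MYH9, coding exon: tgcaggcggAGAAGAAGAAGAtgcagcaga
MYO5A, MYO10 and MYH14 hold exonic repeats of 9 nt, and MYO18A one of 12 nt in its 3′ UTR. In order of exonic repeat length the tested members had log2 fold changes of −0.44 (MYH10), −0.28 (MYO6), 0.12 (MYH9), −0.96 (MYH3), −0.24 and −0.09 (MYO5A and MYO10) and −0.94 (MYO1E). By the longest repeat of the gene body the order began with MYO1E (17 nt) and MYH10 (15 nt), followed by MYH3 and MYO6 (13 nt each). A repeat of at least 12 nt in the gene body was found in 11.3% of the tested genes searched. These are descriptions of 7 genes, and no test was made of them.

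**Figure D4:**
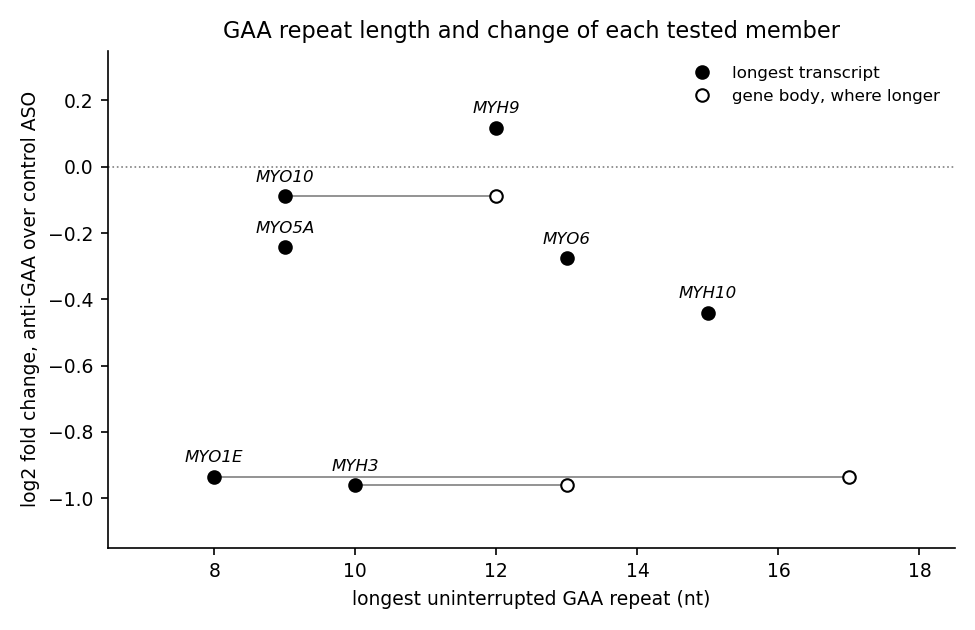
Longest uninterrupted GAA repeat in nt (x axis) and log2 fold change, anti-GAA over control ASO (y axis), of the 7 tested members. Filled points are the longest transcript and open points the gene body where it holds a longer repeat. MYO1E has the shortest exonic repeat (8 nt) and the longest repeat in the gene body (17 nt).

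The other heavy chain genes were mostly near or below their control levels and none passed an adjusted p of 0.05 in edgeR with or without the block. Of 29 listed, 28 were matched to the counts and 12 tested, of which 10 had a log2 fold change below 0. The median was −0.20, against −0.28 over the 7 members and 0.01 over all tested genes. MYO1C, a membrane-tethered class I chain, was the most abundant, with 213 and 175 CPM in the anti-GAA libraries against 216 and 182 CPM in the controls (log2 fold change −0.03, SE 0.21). MYO1D, another class I chain, had 27.7 and 41.3 CPM in the anti-GAA libraries against 32.6 and 50.3 CPM in the controls (log2 fold change −0.26, SE 0.30). Relative to MYO1C in the same library, MYO1E was lower, with a log2 difference of −0.89, although anti-GAA ASO replicate 2 (−3.23) lay close to control ASO replicate 1 (−3.15). Of the fast and developmental muscle chains clustered with MYH3 on chromosome 17, MYH1, MYH2, MYH4, MYH8 and MYH13 reached at most 0.393 CPM in any library. With offsets for transcript length and GC content, the median was −0.17 for the members and −0.15 for the other heavy chains.

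Of the 36 light chains, calmodulins, kinases, phosphatase subunits and adaptors listed, 34 were tested, 16 with a log2 fold change below 0 and 18 above, and the median was 0.01. MYL12B, a regulatory light chain, DYNLL1, a light chain shared with dynein, and MYL6, the essential light chain, were the most abundant at 727, 629 and 626 CPM on average, with log2 fold changes of 0.17, 0.17 and 0.17 (SE 0.21, 0.19 and 0.30). S100A4, a calcium-binding protein that takes apart MYH9 filaments, had 84.5 and 66.7 CPM in the anti-GAA libraries against 158 and 105 CPM in the controls. It was lower in both anti-GAA ASO libraries than in both controls, as were 16.9% of all tested genes. Its log2 fold change was −0.80 (SE 0.26, edgeR adjusted p = 0.996), and with the replicate block it passed with an adjusted p of 0.0121. It was the only gene of this list called with the block, at 1.37% of all tested genes called lower. ACTG1 (12400 CPM on average), CFL1 and ACTB led the 12 actin and tropomyosin genes, of which 9 had a log2 fold change above 0 and none passed in either fit (median 0.17). CFL1, the actin-severing cofilin, had 2402 and 1824 CPM in the anti-GAA libraries against 989 and 1697 CPM in the controls (log2 fold change 0.65, SE 0.30, edgeR adjusted p = 0.996).

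**Figure D5:**
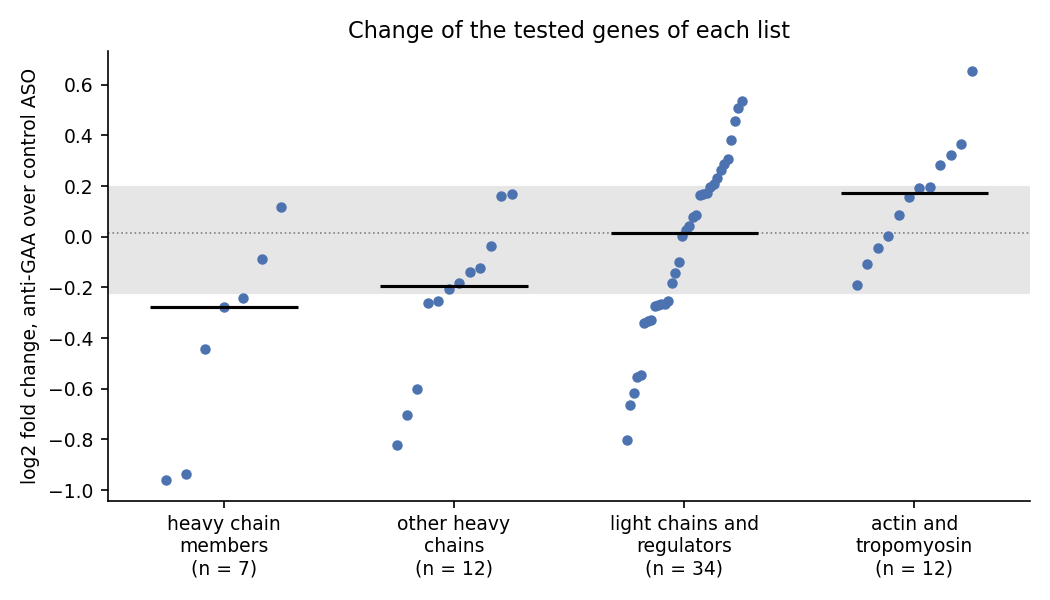
Log2 fold change, anti-GAA over control ASO (y axis), of the tested genes of each list, sorted within the list. Black lines are list medians (−0.28, −0.20, 0.01 and 0.17 from left to right), the grey band spans the quartiles of all tested genes (−0.22 to 0.20) and the dotted line is their median (0.01).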

How the data were processed

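The deposited values are raw counts per Ensembl gene, which the authors made with featureCounts from reads trimmed in Trimmomatic and mapped to hg19 by STAR, without those on GL contigs. Annotation release, strandedness and the handling of multimapping reads are not given in the sources used here. Counts of 63677 genes in 4 libraries were tested in edgeR 4.0.16 (R 4.3.3): filterByExpr, TMM, and a quasi-likelihood test of the ASO alone, Benjamini-Hochberg adjusted over 15116 genes. DESeq2 1.42.0, other scalings and filters, a replicate block, offsets for length and GC content (mgcv 1.9.3) and leaving out each library were alternatives. The tests were also run on simulated counts. There both groups were given the same replicate effect, so that run cannot show whether the block suits these libraries. Pair values subtract log2 CPM (prior count 2) of libraries of the same number. GENCODE 44 on GRCh38 gave transcripts and positions, matched by Ensembl identifier (52181 genes), and no position was converted from hg19. Levels per length divide by the longest transcript. Permutation tests used scipy 1.17.1. All 9 members are named. Of each other list the 3 genes with the highest mean CPM and any past an adjusted p of 0.05 are named, with neighbouring or overlapping genes that bear on a member's counts and, for MYH3, the 3 most similar genes. A gene that this rule would name is not reported here. The members and lists were chosen with earlier results of these data known. Every column of per-sample values was used.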

Additional observations from a re-analysis of the deposited data

How the results depend on the processing

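Over 13 alternatives for each of the 7 tested members (91 values), 83 kept their direction and their side of the adjusted p of 0.05. MYO1E passed with the replicate block (log2 fold change −0.93), with DESeq2 and the replicate block (−0.92) and with the replicate block and offsets for length and GC content (−0.89), and MYH3 passed with the last of these (−0.95, adjusted p = 0.0278). Over their alternatives adjusted p ran from 3.8e-05 to 1 for MYO1E and from 0.0278 to 1 for MYH3. Leaving out 1 library turned the direction for MYH9 (−0.078 without control ASO replicate 1, up to 0.34), for MYO6 (0.000495 without control ASO replicate 2, down to −0.51) and for MYO10 (0.051 without anti-GAA ASO replicate 1 and 0.11 without control ASO replicate 2, down to −0.26). The cause was not tested.

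Libraries of the same replicate number deviated together from their group means (r = 0.564 over 15116 genes). With 2 pairs, and with labels that do not say what the number marks, the replicate block is reported as an alternative. With it, 258 of the 15116 tested genes were called, 207 lower and 51 higher. Among them were 1 of the 7 tested members, 1 of the 34 tested light chains or regulators and 0 of the other lists. With DESeq2 and the replicate block, 58 of the 15116 were called, 45 lower and 13 higher, among them 1 member and 1 light chain or regulator. With the replicate block and both offsets, 778 of the 15116 were called, 511 lower and 267 higher. Among these were 2 of the 7 members, 3 of the 34 light chains or regulators and 1 of the 12 actin or tropomyosin genes. DESeq2 alone called 5 lower, and without the filter on low counts edgeR called 111 lower and 5 higher. Leaving out 1 library gave 0 to 16 genes lower and 0 to 3 higher, with 16 lower and 2 higher without control ASO replicate 1, and 2 lower and 3 higher without anti-GAA ASO replicate 2.

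The median log2 fold change ranged from −0.48 to −0.016 for the members and from −0.50 to 0.061 for the other heavy chains when 1 library was left out, the extremes without control ASO replicate 1 and control ASO replicate 2, and from −0.036 to 0.13 for the light chains and regulators. For the other heavy chains it was −0.40 without the filter, which adds genes of few counts. For the light chains and regulators it was −0.074 with scaling to total counts, which shifted the median of all genes from 0.013 to −0.081, and 0.043 with DESeq2 and the replicate block. For the actin genes it was 0.0795 with scaling to total counts. The share of MYH9 was higher with the anti-GAA ASO in every alternative run, by 2.67 to 6.45 percentage points when 1 library was left out. MYH3, MYH14 and MYO18A had at most 137 counts in a library, which limits what these libraries can show for them.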
